A study of Mus musculus with 42 samples.

Results

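The genes described here are the 75 genes for proteins of the spliceosome and for splicing factors whose symbols begin with Srsf, Snrp, Sf3a, Sf3b, Prpf, Hnrnp or U2af, or with Lsm and a digit, among the 13031 genes in the table of lean KO and WT livers. They comprise 10 SR protein genes (Srsf), 11 snRNP protein genes (Snrp), 8 SF3 genes, 13 PRPF genes, 18 hnRNP genes, 3 U2AF genes and 12 LSM genes, and all 75 were present in each of the 6 tables of comparisons. The livers came from 42 male C57BL/6J mice, 7 in each of 6 groups, with 1 RNA library per mouse. WT lean and KO lean mice ate a control diet with 10% of its energy from lard, and WT obese and KO obese mice ate a high fat diet with 60% from lard. Both diets were fed from 6 weeks of age for 15 weeks. These 4 groups were injected into the abdomen with a vehicle of ethanol and PBS on 4 days. WT obese+RvE1 and KO obese+RvE1 mice ate the same high fat diet and were injected with 300 ng of resolvin E1 (RvE1), an eicosapentaenoic acid product that acts as a lipid signal, on the same 4 days, and all livers were taken on day 5. The KO mice lacked ChemR23, a receptor for RvE1 encoded by Cmklr1, in the whole body after CRISPR/Cas9 editing, and the WT mice were their littermates.

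The spliceosome removes introns from pre-mRNA. Its building blocks are small nuclear ribonucleoprotein particles (snRNPs), in which a ring of Sm proteins (Snrpb, Snrpd1, Snrpd2, Snrpd3, Snrpe, Snrpf, Snrpg) or, on U6 RNA, a ring of LSM proteins (Lsm2 to Lsm8) holds a small nuclear RNA. The U2AF dimer and the SF3 complexes of the U2 snRNP recognise the end of the intron and its branch point, PRPF proteins such as PRPF8 build the catalytic particle, and SR and hnRNP proteins bind the transcript and favour or hinder the use of particular sites. Hepatocytes use these factors to set the isoforms of many metabolic genes. The name rule also takes in Lsm1, of cytoplasmic mRNA decay, Lsm10 and Lsm11, of the histone-processing U7 particle, and Lsm14a and Lsm14b, of P-bodies.

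Between 15992556 and 43841273 reads per mouse lay on listed genes. Cmklr1 ranged from 9.72 to 22.6 normalised counts in KO lean and from 40.8 to 114 in WT lean livers, so the groups did not overlap. The hepatocyte marker Alb lay between 450400 and 947300 normalised counts in these 14 livers. The markers of Kupffer cells and other macrophages differed between the lean groups. Their summed normalised count was 6475 to 13710 (median 7126) in KO lean against 2658 to 6087 (median 3852) in WT lean livers, and 6 of the 7 tested markers, of 8 on the list, were called higher. In bulk tissue, fewer cells of a type and less RNA per cell cannot be told apart. The 7 mice of a group carried identifiers that open with 2 to 4 different numbers per group. The labels do not say what this number marks.

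Levels are given as normalised counts, which are reads divided by the library's size factor and are comparable within a table. Per kb of annotated exon, the most abundant members in lean livers were hnRNP genes. Hnrnpab, for an hnRNP that binds A- and U-rich RNA, had 1239 normalised counts per kb, Hnrnpf, for a binder of G-rich stretches, had 1022, and Hnrnpa0 had 951. The lowest were Hnrnpr with 14.6, Snrpc, for a U1 snRNP protein, with 10.9, and Hnrnpa1, for a widely studied splicing repressor, with 4.62 normalised counts per kb. The length used is the union of all annotated exons, 22199 bases for Hnrnpr and 6521 for Snrpc, and this rank depends on it. By count Hnrnpr had a mean of 324, against 19.2 for Lsm5. Hnrnpa1 had a mean of only 14.6 normalised counts, and the gene is known to have many near-identical pseudogene copies, so its value is uncertain here. Spread between mice was moderate for most members. In WT lean livers the median coefficient of variation over the 75 genes was 14.1%, from 5.09% for Hnrnpab to 41.5% for Lsm5, and in KO lean livers it was 18.6%, from 7.83% for Snrpa1 to 54.2% for Lsm5.

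The comparison of KO lean with WT lean mice asks what loss of ChemR23 changed in the liver without obesity. With the 14 mice taken as independent, 21 splicing genes were lower and 4 were higher in lean KO than in lean WT livers, and 11 of the lower ones were hnRNP genes. With the identifier number as a random replicate block (consensus correlation 0.2172), limma called 0 of the 75, with 28 at an unadjusted p under 0.05 and a smallest adjusted p of 0.138. Over all 13031 genes the block left 3 called, with 2654 at an unadjusted p under 0.05. On 1 mean per identifier number limma called 4 members and 389 of all genes. The calls given for single genes of this comparison are those of the fit without the block. A gene was called at a BH-adjusted p under 0.1 with limma, at any fold change. The share of all 13031 genes called was 16.3%, with 8% higher and 8.3% lower, against 25 of the 75 splicing genes. The median log2 fold change (KO minus WT) was -0.17 for the 75 genes and -0.00042 for all genes tested, and 58 of the 75 lay below 0. When a fold change above 1.5 was also required, 13 members (4 higher, 9 lower) remained, against 6.65% of all genes. The 2 members whose groups did not overlap, Prpf6 and Srsf9, compare with 0.744% of all genes tested.

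The 4 genes that were higher in KO lean livers encode small proteins of the snRNP core and of SF3B. Lsm3, a subunit of the ring on U6 RNA, had 119 to 383 normalised counts (median 241) in KO lean and 91.8 to 146 (median 109) in WT lean livers. In 6 of the 7 KO mice Lsm3 lay above every WT mouse. Its log2 fold change was 1.00 (adjusted p = 0.0308, SE 0.21) and was the furthest from 0 of any member here. Snrpd2, a subunit of the Sm ring, ranged from 240.5 to 462 (median 328) in KO lean against 154 to 292 (median 171) in WT lean livers, with a log2 fold change of 0.68 (adjusted p = 0.0417, SE 0.17). The groups overlapped, and 5 KO mice lay above all WT mice. Snrpe, also of the Sm ring, had 79.7 to 165 (median 126) against 57.1 to 119 (median 71.5) normalised counts, with a log2 fold change of 0.64 (adjusted p = 0.0502, SE 0.18). Sf3b5, for the smallest subunit of SF3B, had 842 to 1861 (median 1219) against 632 to 1027 (median 851), with a log2 fold change of 0.59 (adjusted p = 0.0471, SE 0.16).

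**Figure D1:**
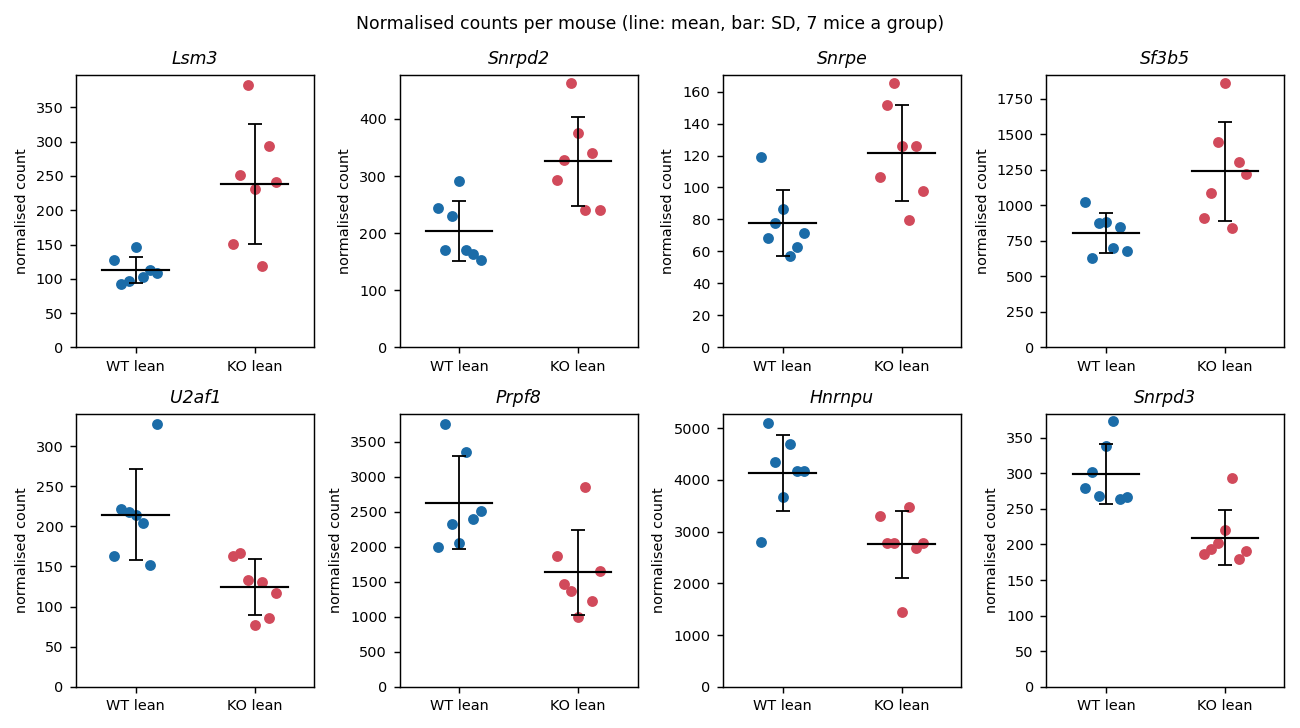
Normalised counts of 8 splicing genes in each lean mouse (vertical axes, each starting at 0) by group (horizontal axes), with the mean as a line and the SD as a bar, 7 mice a group. The upper row holds the 4 genes that were higher in KO lean livers, and the lower row holds U2af1, Prpf8, Hnrnpu and Snrpd3, which were lower. The 2 groups overlap in all 8 panels.

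No other snRNP or LSM gene was called higher, and the log2 fold changes of the rest lay on both sides of 0. Snrpd3, the Sm protein that pairs with SmB, had 180 to 293 (median 194) normalised counts in KO lean and 264 to 373 (median 280) in WT lean livers. All but 1 KO mouse lay below every WT mouse, and the gene fell by 0.52 on the log2 scale (adjusted p = 0.0357, SE 0.12). Among the snRNP genes that were not called, Snrpn had a log2 fold change of 0.50 (adjusted p = 0.123), Snrpb -0.17 (adjusted p = 0.354), Snrpa -0.30 (adjusted p = 0.139) and Snrpd1 -0.27 (adjusted p = 0.256). Snrpn and Snrpb encode near-identical proteins, so reads may be shared between them. In the LSM family, Lsm2 had -0.04 (adjusted p = 0.837) and Lsm4 0.29 (adjusted p = 0.159). Lsm12, which is no part of the U6 ring, was the family's 1 lower member, with 263 to 358 (median 292) against 335 to 487 (median 380) normalised counts and a log2 fold change of -0.40 (adjusted p = 0.0458, SE 0.11).

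Among the factors that define the end of the intron, U2af1 changed most. U2af1, for the subunit that contacts the AG at the intron's end, had 76.7 to 166 (median 131) normalised counts in KO lean and 152 to 328 (median 215) in WT lean livers. In 5 KO mice it lay below all WT mice, and its log2 fold change was -0.79 (adjusted p = 0.0393, SE 0.20). Its partner U2af2, which binds the polypyrimidine tract, had a log2 fold change of -0.24 (adjusted p = 0.118). Of the 8 SF3 genes, Sf3a2 (-0.61, SE 0.20, adjusted p = 0.0716) and Sf3b3 (-0.51, SE 0.18, adjusted p = 0.0872) were lower, against 8.3% of all genes. Sf3b1, which grips the branch point and is the most abundant SF3 transcript by count, had a log2 fold change of 0.01 (adjusted p = 0.96), with 2884 to 4070 (median 3531) against 2582 to 4540 (median 3310) normalised counts, and Sf3a1 had -0.14 (adjusted p = 0.485).

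Of the 13 PRPF genes 3 were lower in KO lean livers and none was called higher, against 8.3% of all genes lower and 8% higher. Prpf6, a bridge between snRNPs of the tri-snRNP, had 345 to 599 (median 458) normalised counts in KO lean and 684 to 813 (median 755) in WT lean livers. All 7 KO mice lay below all 7 WT mice, with a log2 fold change of -0.69 (adjusted p = 0.0264, SE 0.12), the lowest adjusted p among the 75 genes. Prpf8, the scaffold of the catalytic centre, had 994 to 2848 (median 1468) against 2000 to 3757 (median 2399), with a log2 fold change of -0.72 (adjusted p = 0.0482, SE 0.20). In 1 KO mouse it lay among the WT values and in the other 6 below them. Prpf4, a tri-snRNP protein, had a log2 fold change of -0.31 (adjusted p = 0.0697). Prpf3 (-0.24, adjusted p = 0.248), the kinase gene Prpf4b (-0.25, adjusted p = 0.21) and Prpf38b (-0.19, adjusted p = 0.299) were not called.

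All 18 hnRNP genes had a log2 fold change below 0, and 11 passed the test, the largest share of any of the 7 families. The median of the 18 was -0.35. Over all 13031 genes, 6519 lay below 0 and 8.3% were called lower. Hnrnpul2, for a protein related to HNRNPU, had 784 to 2046 (median 1317) normalised counts in KO lean and 1495 to 2517 (median 2055) in WT lean livers, with a log2 fold change of -0.66 (adjusted p = 0.0428, SE 0.17). Hnrnpu, for a scaffold protein that binds chromatin and nascent RNA, had 1450 to 3477 (median 2784) against 2799 to 5095 (median 4174), with a log2 fold change of -0.61 (adjusted p = 0.0511, SE 0.18). In 5 KO mice it lay below all WT mice. The abundant Hnrnpa2b1 (-0.38, SE 0.13, adjusted p = 0.0742), Hnrnpab (-0.40, SE 0.10, adjusted p = 0.04), Hnrnpa0 (-0.36, SE 0.12, adjusted p = 0.0683) and Hnrnpf (-0.31, SE 0.11, adjusted p = 0.0842) fell by less. Hnrnpa1 was called lower (-0.82, SE 0.27, adjusted p = 0.069) on values of 5.70 to 17.6 (median 10.2) against 13.4 to 30.8 (median 16.5) normalised counts. Hnrnpk, for a poly-C binding protein, had a log2 fold change of -0.09 (adjusted p = 0.639), and Hnrnpr had -0.33 (adjusted p = 0.285). Hnrnph1, Hnrnph2, Hnrnph3 and Hnrnpm were the remaining members called lower.

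Of the 10 SR genes, 2 were lower in KO lean livers and none was called higher, against 8.3% of all genes lower and 8% higher. Srsf9 had 328 to 466 (median 364) normalised counts in KO lean and 470 to 596 (median 538) in WT lean livers. The groups did not overlap, and its log2 fold change was -0.45 (adjusted p = 0.0357, SE 0.11). Srsf4 had a log2 fold change of -0.60 (adjusted p = 0.0837, SE 0.21). The abundant Srsf1, for the founding SR protein, had 2249 to 3473 (median 2921) against 3134 to 4187 (median 3521), with a log2 fold change of -0.29 that missed the threshold (adjusted p = 0.114). Srsf2 (0.09, adjusted p = 0.603), Srsf3 (0.12, adjusted p = 0.713), Srsf5 (-0.33, adjusted p = 0.306), Srsf6 (0.07, adjusted p = 0.712), Srsf7 (-0.10, adjusted p = 0.579) and Srsf11 (-0.18, adjusted p = 0.289) were not called either. Whether one family differed from another was not tested.

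**Figure D2:**
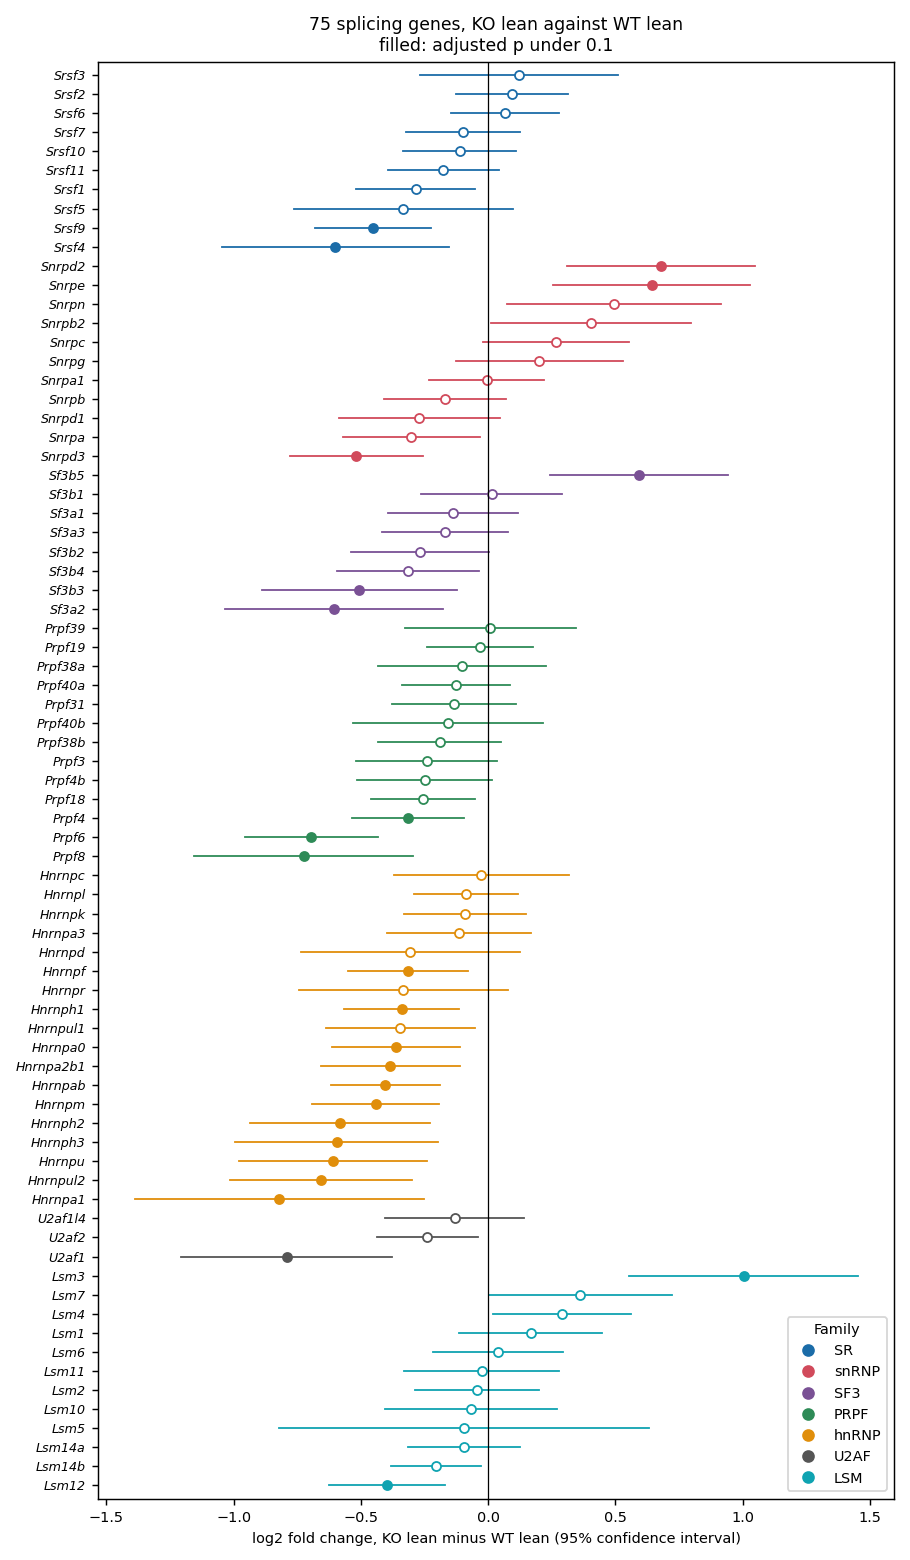
Log2 fold change between KO lean and WT lean livers (horizontal axis, KO minus WT) for each of the 75 genes (vertical axis, ordered by family), with the 95% confidence interval from limma, 7 mice a group. Filled points passed an adjusted p under 0.1, and all 18 hnRNP genes lie left of 0 while Lsm3, Snrpd2, Snrpe and Sf3b5 are the filled points on the right.

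The count of 25 depended on how the replicates were handled. Beside the loss of all 25 calls under the block, edgeR called 25 and DESeq2 30 members, without a block. Over all 13031 genes edgeR called 2136 and DESeq2 2582. Of the 25 members, 8 passed with each of the 14 mice left out in turn, namely Hnrnpab, Hnrnpul2, Lsm3, Prpf6, Snrpd2, Snrpd3, Srsf9 and U2af1. The count was 9 without WT lean replicate 5 or KO lean replicate 6, 11 without WT lean replicate 2, 15 or 16 without KO lean replicate 4, 3 or 2, and 36 without KO lean replicate 5. It was 0 without the mice of identifier number 9, 21 or 26.

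The promoters of the pair of genes with the largest rise and of 2 genes with a large fall in lean KO livers are shown so that the starts of the genes can be compared. Each window runs from 250 bases before to 50 bases after the annotated start, on GRCm38.p6 from RefSeq, read 5′ to 3′ on the gene's strand. Capitals mark matches on either strand to the GC box GGGCGG and the CCAAT box CCAAT. Lsm3 lies at chr6:91515785-91516084 on the plus strand, Snrpd2 at chr7:19149588-19149887 on the plus strand, U2af1 at chr17:31658715-31659014 on the minus strand and Prpf8 at chr11:75486527-75486826 on the plus strand.
Lsm3: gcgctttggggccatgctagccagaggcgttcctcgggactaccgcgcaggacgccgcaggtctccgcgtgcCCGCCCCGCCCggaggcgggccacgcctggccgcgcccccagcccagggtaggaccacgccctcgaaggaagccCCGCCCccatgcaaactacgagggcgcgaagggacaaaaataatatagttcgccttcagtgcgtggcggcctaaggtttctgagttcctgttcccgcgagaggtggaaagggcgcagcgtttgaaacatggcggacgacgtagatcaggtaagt
Snrpd2: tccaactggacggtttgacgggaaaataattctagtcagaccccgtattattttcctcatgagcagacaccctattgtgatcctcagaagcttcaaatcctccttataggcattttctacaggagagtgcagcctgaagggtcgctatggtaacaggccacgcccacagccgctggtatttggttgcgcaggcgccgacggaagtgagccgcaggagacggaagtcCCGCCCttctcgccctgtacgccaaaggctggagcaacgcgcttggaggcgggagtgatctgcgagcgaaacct
U2af1: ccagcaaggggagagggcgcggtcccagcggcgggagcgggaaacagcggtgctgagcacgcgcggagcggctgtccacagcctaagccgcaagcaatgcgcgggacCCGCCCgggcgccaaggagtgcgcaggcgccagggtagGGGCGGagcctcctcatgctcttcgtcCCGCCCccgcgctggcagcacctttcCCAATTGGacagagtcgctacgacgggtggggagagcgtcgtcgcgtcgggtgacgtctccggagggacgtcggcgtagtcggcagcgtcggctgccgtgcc
Prpf8: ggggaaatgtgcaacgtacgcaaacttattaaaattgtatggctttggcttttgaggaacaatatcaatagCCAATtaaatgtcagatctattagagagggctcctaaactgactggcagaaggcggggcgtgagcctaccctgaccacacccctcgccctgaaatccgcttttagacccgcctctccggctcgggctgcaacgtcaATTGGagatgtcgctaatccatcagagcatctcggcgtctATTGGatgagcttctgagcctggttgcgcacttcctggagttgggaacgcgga

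Lsm3 had 3 GC boxes and U2af1 3, Snrpd2 had 1 and Prpf8 0. Prpf8 held 3 CCAAT matches and U2af1 2 that overlap on opposite strands, while Lsm3 and Snrpd2 had 0. Of the 75 genes 64 had a RefSeq window. A GC box was in 68.8% of these, against 62.7% of the windows of all genes in the lean table and 35.9% of all 27025 windows. CCAAT was in 51.6%, against 38.7% and 37.9%. The ETS letters CCGGAAG were in 29.7%, against 17.3% and 9.12%, and the TATA letters TATAAA were in 9.38%, against 7.54% and 14.2%. The letters GCATGCGC, part of an NRF1 site, and AAGATGGC, part of a YY1 site, were each in 6.25% of the members' windows, against 5.38% and 4.59% in the lean table and 2.8% and 2.88% of all windows. Among the windows of members called lower, 10 of 19 held CCAAT and 13 of 19 a GC box, and among the 3 windows of members called higher, 0 held CCAAT and 2 a GC box.

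Exonic length went along with the fold change across all genes tested in this comparison. The exonic length, taken as the union of all annotated exons, was 1372 bases for Snrpe, 2618 for Snrpd2, 2753 for Lsm3 and 3841 for Sf3b5, and 7461 for Prpf8 and 11599 for Hnrnpu, but 1653 for Srsf9 and 2598 for U2af1. Across the 75 genes the log2 fold change and exonic length had a Spearman correlation of -0.18, and across 12291 annotated genes it was -0.34. These are descriptions across genes that share libraries. Over all genes the median log2 fold change was 0.18 at up to 1500 bases and -0.18 above 8000 bases. In the 20 members between 1500 and 3000 bases the median was -0.19, against 0.12 for the 2752 genes of that length. After each library was corrected for length and GC content, 1695 of all 13031 genes were called, 877 higher and 818 lower. Of the members 26 were called, 3 higher and 23 lower, and 22 of the 25 were among them. Snrpe (0.39, adjusted p = 0.11) and Sf3b3 (-0.29, adjusted p = 0.2) were then no longer called, while Lsm3 had 0.95 (adjusted p = 0.035) and Hnrnpu -0.51 (adjusted p = 0.055).

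**Figure D3:**
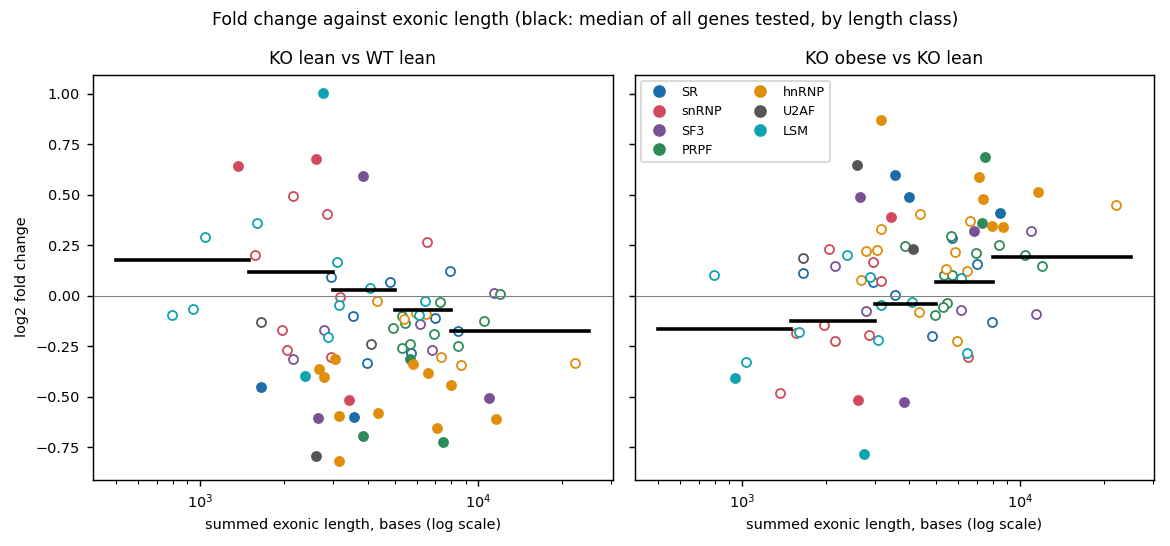
Log2 fold change (vertical axis) against exonic length in bases (horizontal axis, log scale) for the 75 genes in KO lean vs WT lean (left) and KO obese vs KO lean (right), filled where the adjusted p was under 0.1. Black lines give the median of all genes tested in 5 length classes, which runs from 0.18 to -0.18 on the left and from -0.17 to 0.19 on the right.

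Genes of the wider splicing machinery outside the name rule were counted in the same fit. Of 59 further spliceosome proteins 11 were lower and 3 higher in KO lean livers, and of 54 tested splicing regulators 16 were lower and 2 higher. Over all genes tested, 8.3% were lower and 8% higher. Among the lower ones were Srrm2, for a large protein of nuclear speckles (-0.73, adjusted p = 0.0587), Srrm1 (-0.72, adjusted p = 0.0471), the spliceosomal helicase gene Dhx8 (-0.69, adjusted p = 0.04) and Ddx5 (-0.51, adjusted p = 0.0471). The higher ones were the small snRNP proteins Snrnp25 (0.78, adjusted p = 0.0671) and Snrnp27 (0.60, adjusted p = 0.0722), Txnl4b (0.52, adjusted p = 0.063), the exon junction protein Magoh (0.67, adjusted p = 0.0567) and Mbnl1 (0.41, adjusted p = 0.0713). Of the 8 tested SR protein kinases Srpk1 (-0.33, adjusted p = 0.0451) and Dyrk1a (-0.45, adjusted p = 0.0661) were lower. Of 15 genes for the SMN complex and snRNP assembly, 0 were called with limma and 1 had an unadjusted p under 0.05. The macrophage markers were higher in the same KO lean livers, Cd5l by 1.32 (SE 0.23) and Clec4f by 0.98 (SE 0.23) on the log2 scale. The part of macrophage RNA in the splicing gene differences was not tested.

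In KO mice the high fat diet asks the same genes about obesity without the receptor, with the KO lean mice as the common group. With the mice taken as independent, 16 splicing genes were higher and 4 lower in obese than in lean KO livers. With the identifier number as a replicate block (consensus correlation 0.237) limma called 1 of the 75, Snrpd3 (adjusted p = 0.093), and on 1 mean per identifier number 0, with 11 at an unadjusted p under 0.05. The single-gene calls of this comparison come from the fit without the block. The 20 members called out of 75 compare with 24.1% of all 14213 genes tested, of which 12% were higher and 12.1% lower, so the share of members called (26.7%) was close to that of all genes. The median log2 fold change (obese minus lean) was 0.13 for the 75 genes and -0.0021 for all. With a fold change above 1.5 also required, 6 members were called against 10.4% of all genes, and 0 members had groups that did not overlap, against 2.1%.

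Of the 13 PRPF genes 2 were higher, of the 3 U2AF genes 2 were higher, and of the 8 SF3 genes 2 were higher and 1 lower. Over all genes tested, 12% were higher and 12.1% lower. Prpf8 had 2119 to 3706 (median 2604) normalised counts in KO obese and 1096 to 3127 (median 1617) in KO lean livers, with a log2 fold change of 0.69 (adjusted p = 0.0259, SE 0.19). U2af1 had 155 to 319 (median 202) against 84.6 to 183 (median 144), with 5 obese mice above all lean mice and a log2 fold change of 0.65 (adjusted p = 0.036, SE 0.19). U2af2 had 0.23 (adjusted p = 0.0965). Prpf19, for the ubiquitin ligase of the catalytic particle, had 690 to 878 (median 765) against 509 to 746 (median 597), with a log2 fold change of 0.36 (adjusted p = 0.0256, SE 0.10). Sf3a2 (0.49, adjusted p = 0.0979) and Sf3b2 (0.32, adjusted p = 0.0681) were also higher.

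Of the hnRNP genes 6 of 18 were higher and none was called lower, against 12% of all genes higher and 12.1% lower. Hnrnpul2 had 1909 to 2403 (median 2090) normalised counts in KO obese and 865 to 2246 (median 1452) in KO lean livers, with a log2 fold change of 0.59 (adjusted p = 0.0197, SE 0.15). Hnrnpu had 3027 to 4825 (median 4476) against 1600 to 3816 (median 3065), with 6 obese mice above all lean mice and a log2 fold change of 0.52 (adjusted p = 0.0472, SE 0.17). Hnrnpa1 was again called on few reads (0.87, SE 0.35, adjusted p = 0.0969). Among the SR genes Srsf4 (0.60, adjusted p = 0.0507), Srsf5 (0.49, adjusted p = 0.054) and Srsf11 (0.41, adjusted p = 0.0484) were higher. Srsf11, for an SR-related protein of speckles, had 983 to 1830 (median 1578) against 899 to 1273 (median 1096) normalised counts.

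The 4 genes lower in obese KO livers were Lsm3, Sf3b5, Snrpd2 and Lsm10. Lsm3 had 102 to 177 (median 143) normalised counts in KO obese and 131 to 422 (median 265) in KO lean livers, with a log2 fold change of -0.78 (adjusted p = 0.0256, SE 0.22). Sf3b5 had 750 to 1226 (median 867) against 924 to 2052 (median 1343), with -0.53 (adjusted p = 0.0401, SE 0.16). Snrpd2 had 183 to 328 (median 211) against 264 to 509 (median 361), with -0.52 (adjusted p = 0.0568, SE 0.18). Lsm10, of the U7 particle, had -0.41 (adjusted p = 0.0732, SE 0.15). Snrpd3, also of the Sm ring, was higher, with a log2 fold change of 0.39 (adjusted p = 0.0275, SE 0.11). Its 7 obese mice lay between 282 and 309, inside the range of 199 to 322 in lean mice. Of the 25 members called between lean genotypes 12 were called here (48%, or 60% of the 20), and all 12 had opposite signs in the 2 comparisons. The matching overlap over all genes is not given here. Both comparisons contain the KO lean mice, on opposite sides, so the shared members are not 2 independent observations.

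This count of 20 also depended on how the replicates were handled. Beside the block, leaving out 1 mouse gave 11 to 30 members, with 11, 12 or 13 without KO obese replicate 2, 3 or 7 or KO lean replicate 3, 4 or 6, and 30 without KO lean replicate 5, and leaving out the mice of identifier number 31 gave 0. With reads scaled to equal totals, which shifted the median of all genes by 0.14 here and by -0.12 between lean genotypes, 28 members were called, 27 higher and 1 lower. Macrophage markers were lower in obese KO livers, with a summed count of 3981 to 5390 against 7136 to 15120 in lean KO livers and 5 of 7 tested markers called lower, and their part in the splicing gene differences was not tested. Ribosomal protein genes, listed for comparison, had 32 of 91 called lower and 1 higher, against 12.1% and 12% of all genes.

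No splicing gene passed the test in the other comparisons of diet and genotype. In WT mice, obese against lean, limma called 0 of the 75 (8 at an unadjusted p under 0.05), edgeR 0 and DESeq2 2, against 6.27% of 14012 genes. An unadjusted p under 0.05 in limma was found for 2545 of the 14012 genes. The 2 members with the smallest p were Prpf6, with 391 to 752 (median 544) normalised counts in WT obese and 662 to 780 (median 727) in WT lean livers (log2 fold change -0.42, 95% confidence interval -0.72 to -0.13, adjusted p = 0.112), and Lsm12 (-0.27, adjusted p = 0.149). U2af1 had -0.11 (adjusted p = 0.79) and Prpf8 -0.02 (adjusted p = 0.968). Between obese KO and obese WT mice limma, edgeR and DESeq2 each called 0 members (1 at an unadjusted p under 0.05 in each), against 0.0141% of 14162 genes. Of these 14162 genes, 319 had an unadjusted p under 0.05 in limma. Prpf19 had 665 to 841 (median 737) against 608 to 692 (median 651) normalised counts, with a log2 fold change of 0.18 (95% confidence interval 0.02 to 0.34, adjusted p = 1.0). Hnrnph3 had -0.34 (95% confidence interval -0.71 to 0.03). Over the 75 genes the 95% confidence interval reached a median of 0.27 to either side of the estimate in both comparisons.

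The difference between the diet effects of the genotypes was tested as an interaction. Limma called 0 of the 75 members and edgeR 0, against 0.00718% of 13924 genes, while 25 members had an unadjusted p under 0.05 and DESeq2 called 9. Over all 13924 genes, 2553 had an unadjusted p under 0.05 in limma. The median interaction (KO minus WT) was 0.20 on the log2 scale for the members and -0.01 for all genes. Lsm12 had 0.47 (adjusted p = 0.141, SE 0.12), Hnrnpul2 0.73 (adjusted p = 0.141, SE 0.20) and Lsm3 -1.13 (adjusted p = 0.141, SE 0.32). With limma, no member was thus shown to respond to diet differently in the genotypes. Library quality weights gave 22 called members, leaving out KO lean replicate 5 gave 20 and leaving out WT obese replicate 1 gave 11.

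**Figure D4:**
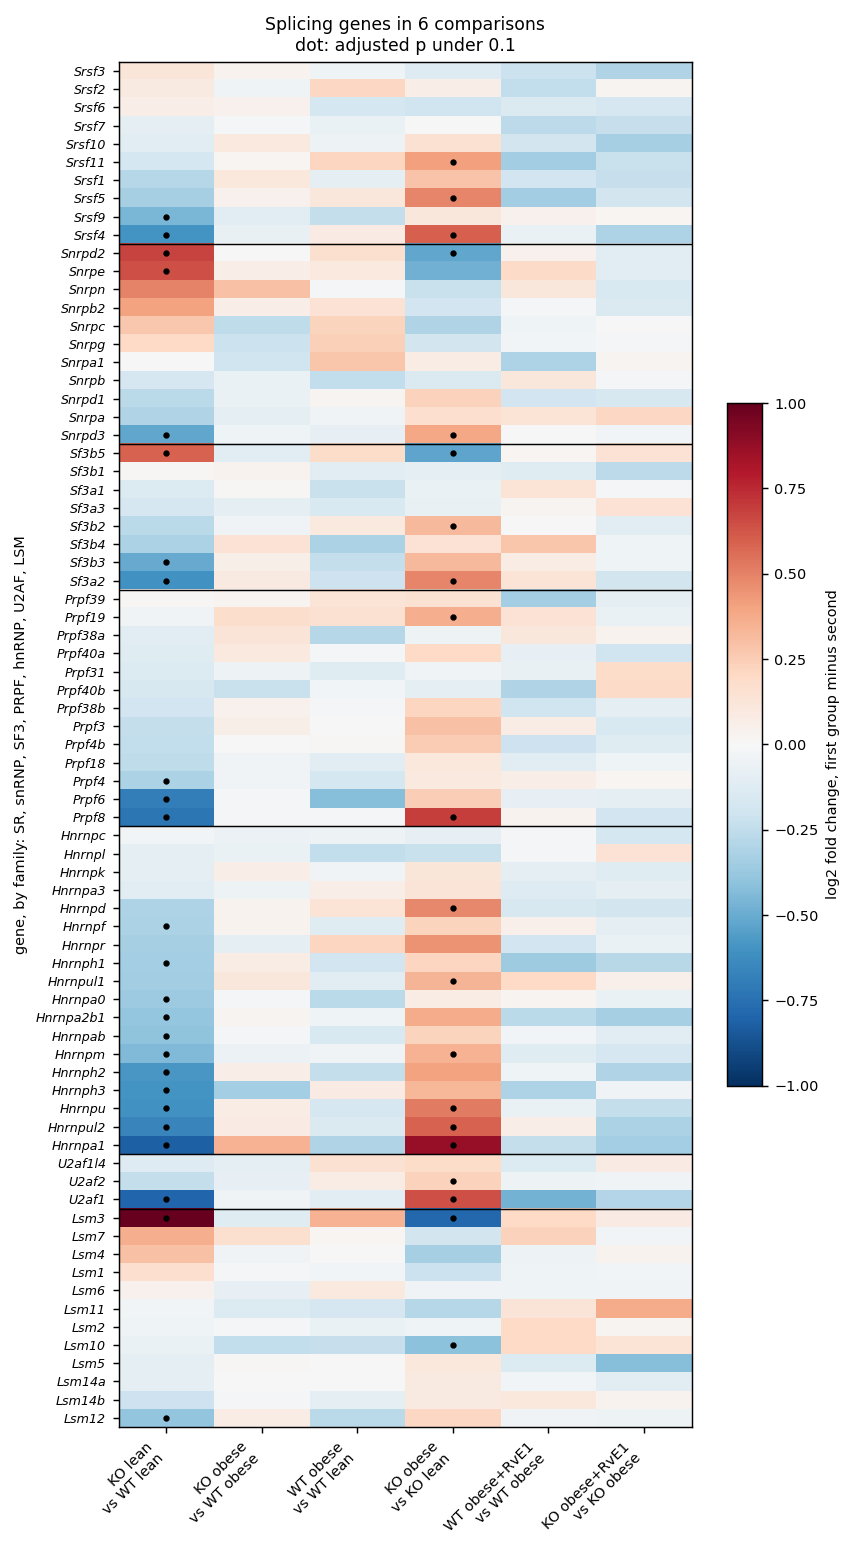
Log2 fold change (colour, first group minus second, limited to -1 and 1) of the 75 genes (rows, by family) in the 6 comparisons (columns), each with 7 mice a group, with a dot where the adjusted p was under 0.1. Dots appear in 2 columns, 25 in KO lean vs WT lean and 20 in KO obese vs KO lean, which share the KO lean mice.

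RvE1 was tested against vehicle within obese mice of each genotype. In WT mice limma called 0 of the 75 genes (9 at an unadjusted p under 0.05), edgeR 0 and DESeq2 0. With limma 0% of 13085 genes were called, and 795 had an unadjusted p under 0.05. Hnrnph1 had 1058 to 1415 (median 1141) normalised counts with RvE1 and 1194 to 1819 (median 1477) with vehicle (log2 fold change -0.35, 95% confidence interval -0.58 to -0.13, adjusted p = 0.772). U2af1 had 128 to 192 (median 157) against 162 to 294 (median 211) (-0.47, 95% confidence interval -0.79 to -0.15, adjusted p = 0.772). The groups overlapped for both genes. In KO mice limma called 0 members (2 at an unadjusted p under 0.05), edgeR 0 and DESeq2 0, against 0% of 14207 genes. The smallest p were those of Hnrnpa2b1, with 3963 to 5454 (median 4685) against 3862 to 7246 (median 6122) normalised counts (-0.33, 95% confidence interval -0.62 to -0.05, adjusted p = 0.572), and Srsf10 (-0.34, adjusted p = 0.577). The interaction of RvE1 with genotype had 0 members called with limma (1 at an unadjusted p under 0.05), edgeR 0 and DESeq2 0. With limma 0% of 13059 genes were called, and 311 had an unadjusted p under 0.05. Prpf40b (0.49, SE 0.21) and Snrpa1 (0.34, SE 0.17) had the smallest p, both with an adjusted p of 1.0.

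As a pool, reads on the 75 genes made up 1970 to 3203 (median 2540) RPM (reads scaled to the library total on listed genes) in KO lean livers and 2881 to 4115 (median 3296) in WT lean livers. The ranges overlapped. In the table of KO mice on both diets it was 2901 to 3547 (median 3165) in obese and 1938 to 3168 (median 2510) in lean livers. In obese mice it was 2900 to 3545 (median 3164) in KO and 2778 to 3536 (median 3328) in WT livers. With RvE1 it was 2543 to 3353 (median 3301) against 2779 to 3539 (median 3331) with vehicle in WT mice, and 2542 to 3959 (median 2915) against 2900 to 3546 (median 3164) in KO mice. No test was made on the sum, since it is a score over chosen genes. Within KO lean livers the median deviation of the 75 genes from their mean over the 14 lean mice ran from -0.31 in replicate 4 to 0.02 in replicate 1 on the log2 scale, and in WT lean livers from 0.02 to 0.14.

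**Figure D5:**
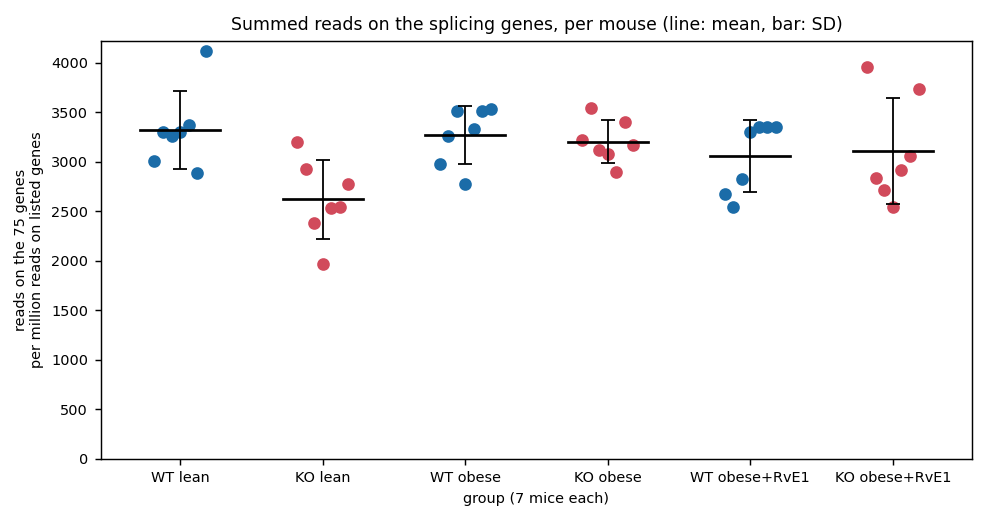
Reads on the 75 genes in RPM of the reads on listed genes (vertical axis, from 0) in each of 42 mice by group (horizontal axis), with the mean as a line and the SD as a bar, 7 mice a group. Groups come from different tables and are compared only within one. The KO lean mice lie between 1970 and 3203, and 1 WT lean mouse stands at 4115.

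Among 12667 other genes measured in all 6 comparisons, those whose 6 log2 fold changes were most like the median of the 75 genes were Mll5, Brpf3, Zcchc14, Gsk3b and Fbxo42, each with a Pearson correlation of 0.999 over the 6 values. Mll5 and Brpf3 encode chromatin proteins. Gsk3b, a kinase of insulin and Wnt signalling, had log2 fold changes of -0.61 between lean genotypes and 0.73 with diet in KO mice. The 6 comparisons share groups, so this likeness is a description only.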

How the data were processed

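Liver RNA of 42 mice was sequenced as paired-end reads from a stranded total RNA kit, aligned by the authors with Bowtie2 to mm10 and counted per gene with featureCounts. For versions, annotation, strand and multi-mapping, the settings were not given in the sources used here. Bowtie2 does not split reads across introns, so counts rest mostly on pairs within exons. The deposited signal values are reads divided by a DESeq2 size factor, separately in each of 6 tables of 14 mice, and whole reads could be recovered from them. The authors' comparison columns (mean, shrunken fold change, its error and p-values) were not used, and 0 columns belonged to no sample.

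Genes with a mean of at least 5 normalised counts were tested with limma 3.58.1 in R 4.3.3 on log2(value + 1), with BH adjustment over all genes and a threshold of 0.1. Fold changes are on that scale, which understates changes of low genes. edgeR 4.0.16 and DESeq2 1.42.0 on recovered reads, other scalings, a length and GC correction and left-out mice were alternatives. The fitting code was tested on simulated data. Intervals and p-values measure the spread between these mice. The number opening each mouse identifier is almost nested in the groups, so it was tried as a random block. No pairing across groups is given by the labels.

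The members and lists were chosen with earlier results of these data known. Named genes are a panel picked for their roles, the 2 called members with the largest change per family and direction, the 2 with the smallest p where fewer than 4 were called, and the 3 highest and 3 lowest per kb. Other called members are named to complete a count and were chosen after their values were seen, as were the genes named from other lists and the alternative without 2 mice together.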

Additional observations from a re-analysis of the deposited data

Results flagged for a closer look

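In 10 of 96 groups of 7 mice, 1 mouse stood apart from the others by Dixon's gap test, and chance flags about 1 in 20 groups. Every flagged gene value came from the comparison of KO lean with WT lean mice, which holds lean mice only. That all flagged mice were lean therefore says little about obese mice. The groups share mice and libraries, so they are not independent, and 3 mice account for all flags. KO lean replicate 4 was lowest for Hnrnpk (1211 normalised counts) and Hnrnpu (1450) and highest for Lsm4 (599). KO lean replicate 5 was highest for Srsf4 (1344), Snrpd3 (293) and Hnrnpf (3629). WT lean replicate 7 was highest for Srsf5 (3346), U2af1 (328) and for summed reads on the 75 genes, with 4115 RPM beside the KO lean mice and 4079 RPM beside the WT obese mice. Without KO lean replicate 4 and WT lean replicate 7 together, 8 members were called between lean genotypes, 1 higher and 7 lower. These were Hnrnpab, Hnrnpul2, Lsm12, Lsm3, Prpf6, Snrpd3, Srsf9 and U2af1. That alternative was chosen after seeing the data.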

How the results depend on the processing

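Between lean genotypes, 12 members had an adjusted p below 0.05, 13 passed when a change of over 1.5 times was also required, 4 on 1 mean per identifier number and 8 passed without KO lean replicate 4 and WT lean replicate 7 together, against 25. With the identifier number as a replicate block, 0 were called with limma, and all 25 had an unadjusted p under 0.05 there. Over all 13031 genes, 718 had an adjusted p below 0.05, 866 passed with the fold change, 389 on the means and 3 with the block, against 2123. For obese against lean KO mice the counts were 9, 6 and 0 under the first 3 of these settings and 1 with the block, against 20. The labels do not say that the number marks a cage or litter, so the block is no known pairing. Library quality weights gave 37 members between lean genotypes (7 higher, 30 lower, against 4 and 21), 29 for diet in KO mice (18 higher, 11 lower, against 16 and 4), 5 for diet in WT mice against 0 and 22 for the interaction of diet with genotype against 0. Between lean genotypes the weights also raised the calls over all 13031 genes, to 4297 from 2123. The matching counts over all genes for the other comparisons are not given here. The length and GC correction gave 1 and DESeq2 2 for diet in WT mice, and DESeq2 gave 9 for the interaction. The cause of these differences was not tested. Leaving out 1 mouse or the mice of 1 identifier number gave 0 to 36 members between lean genotypes, 0 to 30 for diet in KO mice, 0 to 3 for diet in WT mice, 0 to 1 for RvE1 in KO mice and 0 to 20 for the diet interaction. Among the named genes under all alternatives, 8036 values kept their direction and side of the threshold, 347 no longer passed, 103 newly passed and none changed sign past the threshold. Most of these values come from comparisons in which no member was called, where no call could be lost. The tally therefore does not measure how stable the calls were. Genes with few reads, such as Hnrnpa1 and Lsm5, vary most between mice.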

Other observations

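Other gene groups were counted for comparison. Between lean genotypes, 10 of 91 ribosomal protein genes were higher and 3 lower, and 11 of 44 genes of mitochondrial complex I, the first enzyme of the respiratory chain, were higher and 1 lower. Over all genes, 8% were higher and 8.3% lower. The median log2 fold change was -0.04 for the ribosomal protein genes and 0.12 for complex I. Of the 5 tested nuclear retained RNAs, 0 were called with limma and 1 had an unadjusted p under 0.05. Between obese and lean KO mice, Malat1, a long noncoding RNA of nuclear speckles, was the 1 of 5 called, with a log2 fold change of 0.78 (adjusted p = 0.0147, limma). Of 7 lymphocyte markers 5 were lower in obese than in lean KO livers. Over all genes tested between obese and lean KO mice, 24.1% were called, with 12% higher and 12.1% lower.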
